A study of Mus musculus with 10 samples.

Results

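The wild-type (WT) nasal respiratory epithelium of the mouse embryo was described from 5 of the 10 arrays of the series. Each array held RNA of 1 embryo at E16.5, which had been fixed in formalin and embedded in paraffin before the respiratory lining of the nose was taken from sections by laser capture. WT 3 was labelled male and the other 4 embryos female, and the sources used here do not give the strain, the litters or the number of sections per embryo. The other 5 arrays, from embryos that lack miR-34 and miR-449, were left out of every value below. Of 41345 probe sets on the array, 23521 carried exactly 1 gene symbol. They stood for 22180 genes, and where a gene had several, the brightest by its WT mean was kept. The values are robust multi-array average (RMA) intensities on the log2 scale, so that a difference of 1 is a 2-fold difference. With a single group there is nothing to test, and every value below is a level or a spread over 5 captures.

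The nasal respiratory epithelium moistens, filters and clears the inhaled air. Multiciliated cells carry many beating cilia and move a film of mucus, secretory cells and glands supply that film with mucins and antimicrobial proteins, and basal cells renew both. A cell that becomes multiciliated leaves the cell cycle under the geminin relatives Gmnc and Mcidas and builds many centrioles, partly on deuterosomes. Foxj1 and the RFX factors then switch on the genes of the motile axoneme. The miR-34 and miR-449 families are abundant in such cells. Around this lining lie the olfactory epithelium, squamous epithelium of the nostril and mouth, mesenchyme, forming bone and cartilage, and muscle, any of which can enter a capture.

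The microRNAs of the 2 families share their seed, the stretch by which they pair with targets, and their mature 5p strands are printed here because these genes were chosen for deletion in the study. RefSeq (GRCm38.p6) held 5p entries for 4 of the 6 genes, and capitals mark the seed, bases 2 to 8 from the 5′ end:
miR-34a-5p: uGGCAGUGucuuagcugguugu
miR-34b-5p: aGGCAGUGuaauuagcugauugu
miR-449a-5p: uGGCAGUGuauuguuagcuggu
miR-449c-5p: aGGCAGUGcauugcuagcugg
All 4 have the seed GGCAGUG. They lie at chr4:150068473-150068494 (plus strand), chr9:51103610-51103632 (minus), chr13:113037549-113037570 (plus) and chr13:113036008-113036028 (plus). Mir449b and Mir34c had no 5p entry and are named only. The following values are those of probe sets assigned to the microRNA genes and are not levels of the mature strands.

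On the 5 captures in order, the Mir449a probe set read 7.25, 7.42, 6.86, 6.90 and 7.56 (7.20 ± 0.31, SD, n = 5). Mir449c read 7.32, 7.38, 6.80, 7.24 and 7.56 (7.26 ± 0.28). Both were lowest on WT 3 and highest on WT 5. Mir449b was nearly level, at 12.17 ± 0.04. Of the miR-34 genes, Mir34b was at 5.76 ± 0.15, while Mir34a (3.46 ± 0.13) and Mir34c (3.28 ± 0.08) lay low in the range of the array. That range ran from 1.5 to 13.6 over all probe sets of the WT arrays. Cdc20b, whose intron holds the Mir449 genes, read 9.85, 10.18, 9.75, 9.94 and 10.25 (9.99 ± 0.21), and it too was lowest on WT 3 and highest on WT 5.

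The 5 arrays were close to each other. Across genes, pairs of arrays correlated at 0.983 to 0.991, a figure that mostly reflects fixed differences between probe sets. The median SD of a gene over the 5 captures was 0.15, and 0.14 (a 1.1-fold difference) for genes above the reference level defined next. No detection call was used here. As a reference level for a dim probe set, the 95th percentile of the means of 1405 olfactory, vomeronasal and trace amine receptor genes was taken, which was 5.55. Above it lay 13029 genes, or 58.7% of all genes. Xist, which silences an X chromosome in females, read 10.77, 10.91, 4.72, 10.78 and 11.11, and the Y-linked gene Uty read 4.41, 3.84, 7.97, 4.08 and 4.14. WT 3, the embryo labelled male, alone had low Xist and high Uty. Eif2s3y (7.15) and Kdm5d (5.49) were also highest on WT 3, whereas Usp9y (2.82 ± 0.08) and Zfy2 (2.70 ± 0.24) were dim on every array.

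Genes of the multiciliated programme were bright in all 5 captures. All 25 listed regulators of multiciliation and deuterosome genes lay above the reference level, against 58.7% of all genes, with a median of 9.03. Foxj1, the factor that switches on motile cilia, read 10.81, 10.99, 10.83, 10.93 and 10.74 (10.86 ± 0.10), and no capture stood apart. Deup1, the scaffold of the deuterosome, read 10.65, 10.93, 10.55, 10.69 and 10.92 (10.75 ± 0.17). WT 2 and WT 5 were its high captures. Myb, a factor of early multiciliated cells, was at 10.20 ± 0.11. Mcidas, which starts centriole amplification, read 10.10, 10.31, 9.67, 10.01 and 10.31 (10.08 ± 0.27). Mcidas was lowest on WT 3, and so were Plk4, the kinase that begins a new centriole (8.88 on WT 3, 9.61 on WT 5), and the cyclin Ccno (9.16 on WT 3, 9.65 on WT 5). Gmnc, which acts at the top of this programme, was at 7.52 ± 0.20 and differed from that order, with its highest reading on WT 1 (7.80) and its lowest on WT 2 (7.27). The median SD of the 25 was 0.17, against 0.14 for all genes above the reference level. None reached an SD of 0.5, as 2.14% of all genes did, and with 25 genes nothing is read from that. The largest SD was that of Ccdc78, a deuterosome protein (10.00, 10.17, 10.43, 10.23 and 9.57, SD 0.32).

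The axoneme genes were bright as a group. All 54 measured of 61 listed motile cilium genes lay above the reference level, against 58.7% of all genes, with a median of 9.76. Their brightest members were Dynlrb2, a dynein light chain (12.48 ± 0.05), Ccdc153 (11.93 ± 0.26), Lrrc23, a radial spoke protein (11.49 ± 0.10), and the dynein light intermediate chain Dnali1 (11.40 ± 0.13). Of the heavy chains of the dynein arms that drive the beat, Dnah5 was at 9.67 ± 0.32, Dnah9 at 9.03 ± 0.41 and Dnah7a at 7.10 ± 0.49. Levels of different genes rest on different probes, so an order of brightness ranks probe sets and not transcripts.

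The axoneme genes differed between captures in a common order. Dnah7a read 6.81, 7.22, 7.69, 7.33 and 6.42, Dnah9 read 8.80, 9.23, 9.46, 9.23 and 8.44, and Sntn, a protein of the ciliary tip, read 10.45, 10.45, 10.90, 10.59 and 9.70. All of these were highest on WT 3 and lowest on WT 5. Of the 54 genes, 40 were highest on WT 3 and 48 were lowest on WT 5, where the shares among all genes above the reference level were 18.1% and 22.2%. A score per capture, the mean over the members of the value minus the gene's mean over the 5 arrays, was -0.09, 0.09, 0.21, 0.08 and -0.29 for WT 1 to WT 5 (SD 0.19). WT 5 set much of this spread, and the SD of the score was 0.12 without it. The regulators as a list did not follow that order: their score was -0.03, 0.11, -0.08, -0.05 and 0.05. Their members differed: 12 of the 25 were lowest on WT 3 (24.6% of all genes above the reference level). Another 6, among them Foxj1, Rfx2 and Ccdc78, were lowest on WT 5 (22.2%), as most axoneme genes were. The cell cycle genes ran nearly opposite to the axoneme genes, with scores of 0.05, 0.02, -0.11, -0.13 and 0.16. Of 38 measured cell cycle genes, 26 were highest on WT 5 (24.1% of all genes) and 19 were lowest on WT 4 (19.6%). The mitotic activator Cdc20 was at 9.75 ± 0.15, the replication clamp Pcna at 9.29 ± 0.24 and the cyclin Ccnb2 at 8.93 ± 0.09. Cdk1, the mitotic kinase, read 9.35, 9.28, 9.07, 9.04 and 9.57, and Birc5, or survivin, read 7.30, 7.25, 7.08, 6.73 and 7.55. The neuron and olfactory scores described below were also highest on WT 5, and their part in the axoneme and cell cycle order was not tested. In bulk captures, fewer cells of a type and less RNA per cell cannot be told apart.

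**Figure D1:**
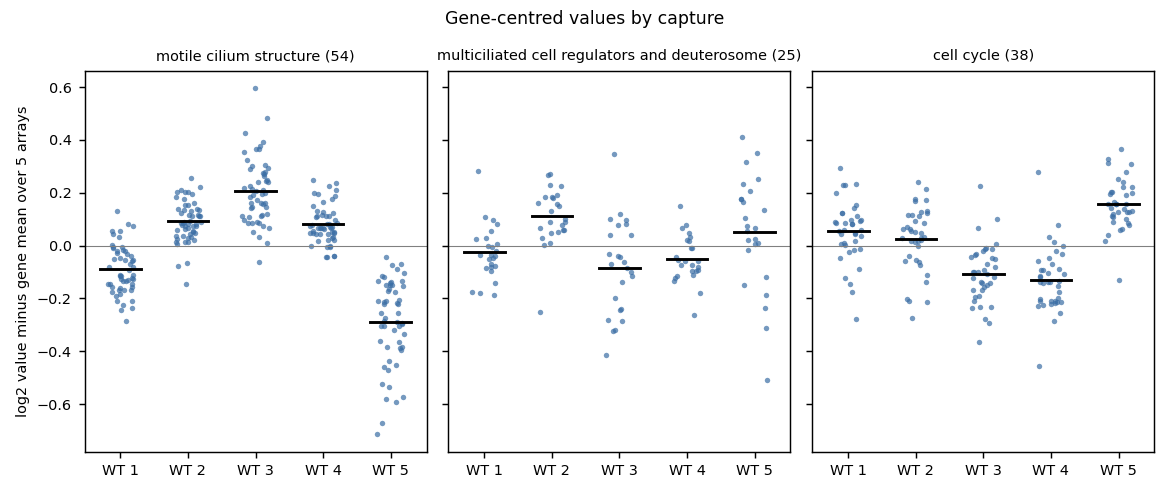
Each point is 1 gene on 1 of the 5 WT captures (x axis), plotted as its log2 value minus its mean over the 5 arrays (y axis), and black bars are list means. The axoneme genes lie highest on WT 3 (mean 0.21) and lowest on WT 5 (mean -0.29). The list means of the multiciliation regulators show no such order, and the cell cycle genes lie highest on WT 5 (mean 0.16).

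RFX factors bind X-box motifs, and both were measured here (Rfx2 9.06 ± 0.19, Rfx3 8.93 ± 0.06). The 6 letters GTTGCC, the core of an X-box arm, and the same letters on the other strand (GGCAAC) were looked for in RefSeq promoters (GRCm38.p6), from 250 bases before to 50 after the start of a gene. They were present in 20 of the 43 axoneme genes with a promoter entry (46.5%) and in 14.1% of all 27025 genes. Counted by promoter, where a gene can have several, the shares were 41.2% of 51 and 12.5% of 32851. Windows of 30 bases from the promoters of the 3 brightest axoneme genes show the letters in place, with the match in capitals:
Dynlrb2: acttcctgcctgGTTGCCtagcaacggggg
Ccdc153: ctgagttttccaGTTGCCtggacaacgtgc
Lrrc23: cgtcccgcccctGTTGCCataacaacaata
The windows lie at chr8:116504952-116504981 (plus strand), chr9:44240513-44240542 (plus) and chr6:124779749-124779778 (minus), 51, 152 and 39 bases before the start. In each, the letters CAAC follow the match within a few bases, as in the second arm of an X-box. Dnah7a, the axoneme gene with the largest SD, also has the letters (tcgctcctcacaGTTGCCtgccaccctctg, chr1:53706967-53706996, minus strand), 200 bases before its start. A match is a description of the sequence and does not show binding.

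Among named genes of all kinds, the 20 brightest probe sets belonged mostly to genes that every cell uses. Translation was represented by Eif4a1, an RNA helicase of initiation (12.57 ± 0.09), the elongation factor Eef1a1 (12.16 ± 0.03), Naca (11.98 ± 0.07), Fau (12.07 ± 0.08) and Tpt1 (12.39 ± 0.04). Others serve protein folding (Hspa8, 12.40 ± 0.05), iron storage (Fth1, 12.09 ± 0.06), defence against superoxide (Sod1, 12.02 ± 0.03) and respiration (Cox6a1, 12.01 ± 0.08; Atp5md, 11.94 ± 0.03). Chromatin and nuclear genes were Ptma (12.06 ± 0.05), the long noncoding RNA Malat1 (11.94 ± 0.06) and Sem1, a small proteasome subunit (11.94 ± 0.05). Those with a tie to this tissue were Dynlrb2, the alpha tubulin gene Tuba1b (12.10 ± 0.08), the surface protein Cd24a (12.36 ± 0.10) and the calcium-binding proteins S100a11 (12.16 ± 0.02) and S100a6 (11.97 ± 0.06). The other two were Vmn1r233, a vomeronasal receptor gene (12.23 ± 0.10), and Erdr1 (12.24 ± 0.24). Vmn1r233 is itself among the 1405 receptor genes of the reference level, whose median was 3.13, and 71 of them lay above that level by its construction. The next brightest of these receptor genes were Vmn1r127 (8.82 ± 0.19), Olfr884 (7.88 ± 0.09) and Olfr1360 (7.42 ± 0.09), and the largest SD was that of Olfr521 (3.61 ± 0.77). Erdr1 was the least steady of the 20, with 11.98, 12.30, 12.09, 12.24 and 12.61. Small RNA genes and mitochondrially encoded genes were ranked apart and led by Snora33 (13.16 ± 0.22), Rn7sk (13.04 ± 0.03), Rny3 (13.04 ± 0.08), n-R5s136 (12.67 ± 0.15), ND4 (12.36 ± 0.06) and ND3 (12.33 ± 0.03), with CYTB (12.32 ± 0.05) and COX1 (12.19 ± 0.07) the next mitochondrial genes of the list. The brightest ribosomal protein genes were Rpl41 (12.65 ± 0.04), Rps12 (12.58 ± 0.12), Rplp1 (12.53 ± 0.07) and Rpl28 (12.40 ± 0.04), and the largest SD among them was that of Rps15 (5.92 ± 0.79). Of the 67 ribosomal protein genes, 43 were lowest on WT 3 (21.7% of all genes), and their score was 0.06, 0.02, -0.14, 0.00 and 0.06.

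**Figure D2:**
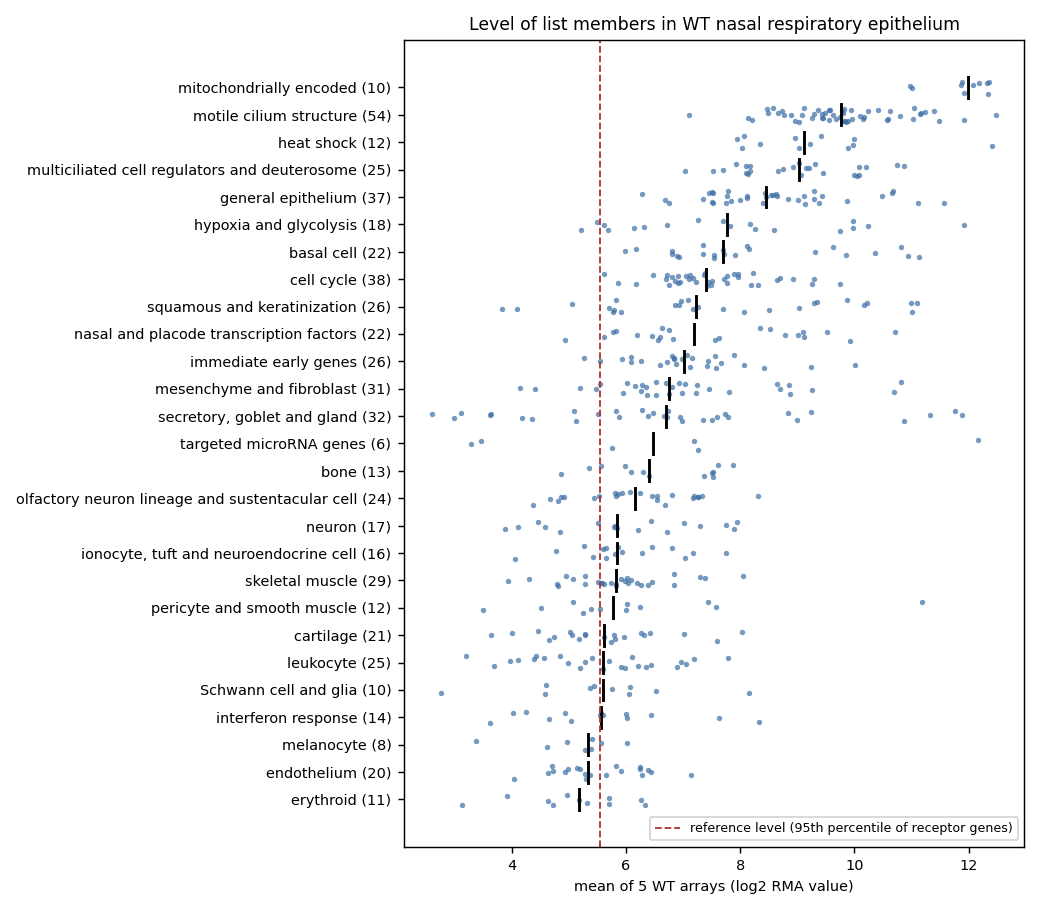
Each point is the mean log2 RMA value of 1 gene over the 5 WT arrays (x axis), grouped by gene list (y axis, number of measured members in brackets), and black bars are list medians. The dashed line is the reference level of 5.55, above which 58.7% of all genes lie. All members of the axoneme, multiciliation, basal and general epithelium lists lie above it, while the endothelium, erythroid and melanocyte medians lie below it.

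General epithelial genes were bright in all captures. All 37 measured members lay above the reference level, against 58.7% of all genes, with a median of 8.45. Their median SD was 0.13. Of the 37, 2 had an SD of 0.5 or more (2.49% of all genes above the reference level) and 17 were lowest on WT 3 (24.6%). The simple-epithelium keratins Krt8 and Krt18 were at 11.57 ± 0.02 and 11.12 ± 0.04, the adhesion protein Cdh1 (E-cadherin) at 10.47 ± 0.06, the protease inhibitor Spint2 at 10.67 ± 0.05 and the transcription factor Klf5 at 10.66 ± 0.08. Krt8 was also among the 8 steadiest genes of the brighter genes, whose SDs ran from 0.0093 to 0.018. The others were Slc22a17 (7.68), Rab10, a GTPase of membrane traffic (8.61), Mrfap1 (10.24), Ankrd39 (7.53), the proteasome ATPase Psmc3 (8.996), Dnm3 (6.22) and Erp44, a chaperone of the secretory pathway (7.80). The largest SD of the list was that of the tight junction gene Cldn6, which read 8.18, 7.15, 6.59, 7.23 and 8.35. The desmosomal gene Pkp1 also varied, at 8.83, 9.40, 7.83, 8.94 and 8.15. The high captures of Cldn6, WT 1 and WT 5, were also those with the highest neuron and olfactory scores.

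All 22 measured of 24 listed basal cell genes lay above the reference level, against 58.7% of all genes, with a median of 7.71. Krt15 was at 11.14 ± 0.31, Krt14 at 10.93 ± 0.28, Dapl1 at 10.81 ± 0.19 and Igfbp2 at 10.35 ± 0.13. Trp63, the factor that defines basal cells, read 7.48, 7.96, 7.39, 7.45 and 7.39 (7.53 ± 0.24), with WT 2 above the other captures. The one probe set for Krt5 is shared with Krt6a, so Krt5 has no value of its own. Krt17 was the only member with an SD of 0.5 or more and read 10.86, 9.37, 8.35, 8.52 and 9.44 (SD 0.996). WT 1 was the high capture for Krt17, as it was for Krt15 (11.63) and Krt14 (11.38). The basal score was 0.17, 0.07, -0.13, -0.12 and 0.00. The keratins Krt13, Krt6a and Krt4 described below were also highest on WT 1, whereas Krt1, Krt10 and Krt77 were lowest there. The part of stratified epithelium in the basal score was not tested.

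Secretory genes divided into bright and dim members. Of 32 measured genes, 22 lay above the reference level (58.7% of all genes), with a median of 6.69. The antimicrobial surface protein Bpifa1 was at 11.88 ± 0.16, Lypd2 at 11.76 ± 0.14, the lectin Reg3g at 11.32 ± 0.15 and Cyp2f2, a cytochrome P450 of airway secretory cells, at 10.86 ± 0.30. Agr2, which folds mucins, was at 9.24 ± 0.23, and of the membrane mucins Muc4 was at 8.83 ± 0.25 and Muc16 at 7.60 ± 0.27. The secreted mucins Muc5b (7.78 ± 0.72) and Muc5ac (6.48 ± 0.49) lay above the reference level too. Scgb1a1, the secretoglobin of club cells, lay below it at 3.11 ± 0.47, as did Bpifa2 (4.36 ± 0.17), the odorant-binding proteins Obp1a (2.61 ± 0.38) and Obp1b (3.64 ± 0.28), and Dmbt1 (3.62 ± 0.07). WT 2 had the lowest value for 18 of the 32 genes (20.2% of all genes). Lactoferrin (Ltf) read 8.85, 6.34, 7.53, 7.59 and 8.35, Muc5b read 8.51, 6.94, 8.54, 7.63 and 7.30, and Tff2, a trefoil peptide, read 8.42, 6.83, 7.44, 7.63 and 7.23. For Bpifb1, a gland product, WT 3 was the high capture (6.59, 6.14, 7.99, 6.99 and 5.95). WT 2 was thus low for each of Ltf, Muc5b and Tff2, while for Bpifb1 WT 5 was lower still.

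Ionocyte, tuft and neuroendocrine genes were near the reference level, with a median of 5.84 and 12 of 16 above it (58.7% of all genes). The ionocyte factors Ascl3 (7.74 ± 0.32) and Foxi1 (7.18 ± 0.19) led the list, followed by Dclk1 (7.04 ± 0.56) and the granule protein Chga (6.80 ± 0.78). Pou2f3, the factor of tuft cells, read 4.50, 6.90, 4.55, 5.80 and 5.33, whereas the tuft channel Trpm5 was steady at 6.28 ± 0.03. Pou2f3 was high on WT 2 and WT 4, the captures with the highest squamous scores, and that relation was not tested.

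Of 22 measured nasal and placode transcription factors, 21 lay above the reference level (58.7% of all genes), with a median of 7.19. Foxa1 was at 10.71 ± 0.11, Eya1 at 9.92 ± 0.08, Sox2 at 9.51 ± 0.19, Six2 at 9.12 ± 0.08, Eya2 at 9.02 ± 0.07 and Otx2, a factor of the anterior head, at 8.53 ± 0.12. Nkx2-1, the factor of lung and thyroid, was the member below the level, at 4.93 ± 0.13. The largest SD was that of Emx2 (6.20, 6.07, 4.79, 4.80 and 7.26), which followed the same order of captures as the neuronal genes, high on WT 5 and low on WT 3 and WT 4. Foxe1 was instead highest on WT 1 (7.87, 6.23, 6.36, 6.34 and 6.99).

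A small share of genes differed widely between captures. Among the 13029 genes above the reference level, 325 (2.49%) had an SD of 0.5 or more, 74 of these had an SD of 1 or more, and 116 genes spanned at least 2 log2 units. Tekt3 (0.50045) and Sult2b1 (0.50044) were just inside the limit of 0.5, and 1700024G13Rik (0.49974) and Pclo (0.49971) just outside. Of the 325, 83 belonged to at least 1 of the lists, cell type or other, and 242 to none. The capture farthest from the median was WT 5 for 108 of them, WT 2 for 90, WT 4 for 61, WT 1 for 35 and WT 3 for 31. These shares (33.2%, 27.7%, 18.8%, 10.8% and 9.54%) compare with 28.6%, 20.8%, 16.7%, 14.0% and 19.97% among all genes above the reference level, so that WT 5 was only somewhat more often the farthest than it was for genes in general. Without WT 1, 403 genes counted as variable, and WT 5 was the farthest for 211 of them. That set differs from the 325 and the matching share of all genes was not computed, so 211 and 108 are not on 1 basis. The most frequent pair of highest and lowest capture was WT 5 over WT 4 (46 genes, 14.2%, against 10.5% of all genes above the reference level). WT 3 over WT 5 (10.8%, against 8.496%) and WT 5 over WT 3 (10.5%, against 9.08%) were also near the share of all genes. WT 2 over WT 1 (33 genes, 10.2%, against 4.18%) and WT 4 over WT 1 (30 genes, 9.23%, against 2.57%) were further from it. The first principal component of the genes above the reference level held 46.5% of the variance, with WT 5 and WT 1 at its positive end (0.66 and 0.41) and WT 4 at its negative end (-0.46). The second held 27.3% and set WT 2 (0.77) against WT 3 (-0.58).

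**Figure D3:**
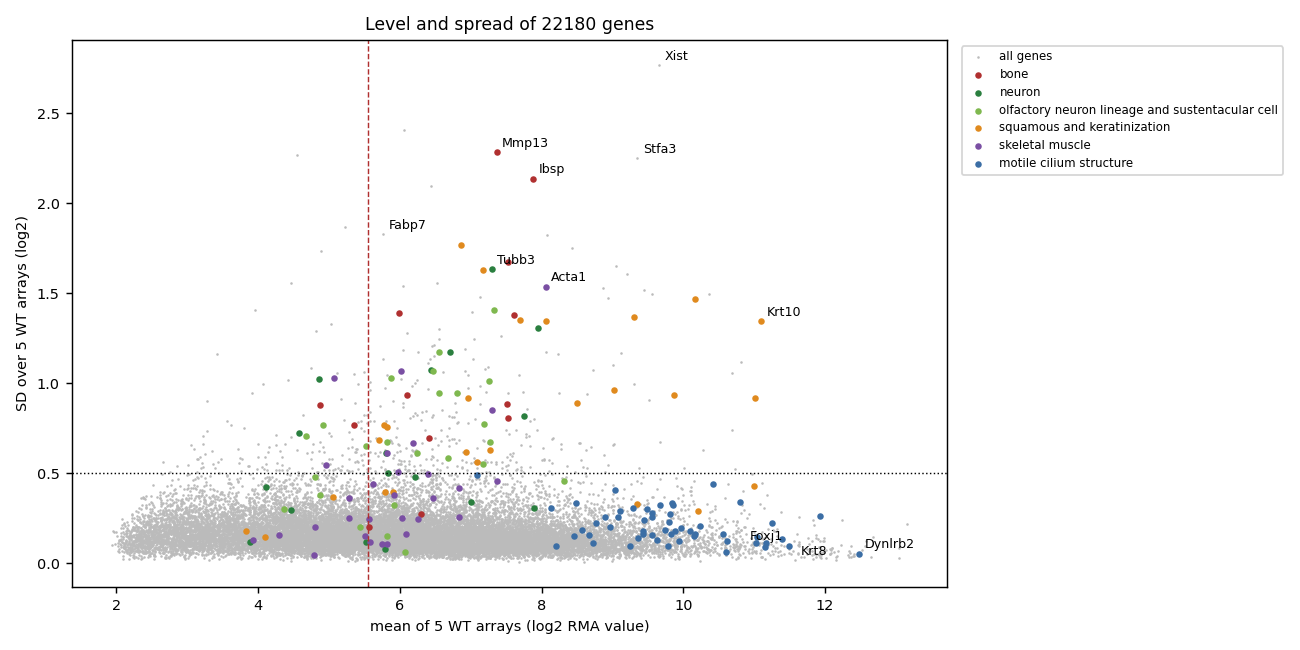
Each point is 1 of 22180 genes, with its mean log2 RMA value over the 5 WT arrays on the x axis and its SD on the y axis, and members of 6 lists are coloured. The dashed line is the reference level and the dotted line an SD of 0.5, which 2.14% of all genes reach. Some bone, neuron, olfactory, squamous and muscle genes lie above the dotted line. The 54 axoneme genes lie below it, Dnah7a closest with an SD of 0.49, and with 54 genes nothing is read from that.

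Genes of forming bone spread the most. Of 13 measured members, 11 had an SD of 0.5 or more (2.14% of all genes) and 11 lay above the reference level (58.7%). The lowest capture was WT 2 for 11 of the 13 (20.2% of all genes). The score per capture was -0.03, -1.44, 0.79, 1.14 and -0.46, with an SD of 1.03. Mmp13, a collagenase of bone and cartilage remodelling, read 8.22, 3.52, 8.97, 9.01 and 7.12, a 44.9-fold span. Ibsp, the bone sialoprotein, read 7.45, 4.83, 9.63, 10.20 and 7.29 (41.3-fold), and Ctsk, the protease of osteoclasts, read 8.05, 4.92, 9.05, 8.72 and 6.89 (17.5-fold). On WT 2 these genes were below the reference level, and WT 3 and WT 4 were the bright captures. Dmp1, a matrix protein of osteocytes, differed in that WT 4 alone was far up (5.44, 4.61, 6.65, 8.08 and 5.14). Mmp9 and Acp5, both of osteoclasts, read 5.54 and 6.58 on WT 2 and 8.84 and 8.43 on WT 3. The osteoblast factor Sp7 read 5.72, 4.94, 7.01, 7.11 and 5.70, and Alpl, the alkaline phosphatase of mineralising cells, 7.28, 6.34, 8.45, 8.34 and 7.15. The named genes of bone-forming and of bone-resorbing cells thus shared their lowest capture. WT 2 set much of the spread: without it the SD of Mmp13 went from 2.28 to 0.88, that of Ctsk from 1.68 to 0.96 and that of Mmp9 from 1.38 to 0.87. Without WT 4 the SD of Dmp1 was 0.86, against 1.39.

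The letters ACCACA, bound by the bone factor Runx2, and their other strand (TGTGGT) were present in the promoters of 3 of the 9 bone genes with an entry (33.3%) and of 18.9% of all genes. They are shown because these genes shared WT 2 as their lowest capture:
Mmp13: attctgccacaaACCACActtaggaagaaa
Bglap: ccgcaatcacctACCACAgcatcctttggg
Dmp1: agtcatttgagaACCACAagagctttttag
The windows lie at chr9:7272384-7272413 (plus strand), chr3:88384581-88384610 (minus) and chr5:104202441-104202470 (plus), 118, 132 and 164 bases before the start. No test was made on these 9 genes, and a match is no evidence of binding. Counted by promoter, the shares for ACCACA were 23.1% of 13 and 16.8% of 32851, and by gene 20.9% of the 43 axoneme genes had these letters. The X-box letters were found in 1 of the 9 bone genes (11.1%), against 14.1% of all genes.

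Mesenchyme followed bone in part. Of 31 measured members, 26 lay above the reference level (58.7% of all genes), with a median of 6.76. An SD of 0.5 or more was seen for 5 of them (2.14% of all genes), and 17 were lowest on WT 2 (20.2%). The score was -0.08, -0.34, 0.24, 0.27 and -0.09. Col1a1, the main collagen of bone and connective tissue, read 10.62, 9.14, 11.62, 12.04 and 10.63, and Col1a2 read 10.52, 9.03, 11.57, 11.65 and 10.68. A further probe set of Col1a2, at 8.56, had an SD of 1.16. Sparc (8.67, 8.15, 9.27, 9.69 and 8.62) and Postn (6.19, 5.22, 6.71, 6.65 and 6.01), both matrix proteins, were also lowest on WT 2. Vim, the filament protein of mesenchyme, was at 9.26 ± 0.14, Col3a1 at 7.80 ± 0.29 and Pdgfra at 6.93 ± 0.29, and these differed less between captures. Cartilage had a median of 5.61, and 11 of 21 lay above the reference level (58.7% of all genes). Sox9, which airway epithelium can also express, was at 8.03 ± 0.25, while Acan, the main proteoglycan of cartilage, was at 5.03 ± 0.20 and Matn1 at 3.64 ± 0.22. Chad was lowest on WT 2 (7.99, 6.75, 8.28, 7.74 and 7.22), and Col11a1 was highest on WT 4 (4.96, 4.49, 5.51, 6.41 and 5.08), as was Col11a2 (6.95).

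Skeletal muscle genes were highest on WT 3 and WT 1. Of 29 measured members, 20 (69.0%) lay above the reference level, against 58.7% of all genes. Of the 29, 24 were lowest on WT 2 (20.2% of all genes) and 8 had an SD of 0.5 or more (2.14%). The score was 0.23, -0.47, 0.46, -0.05 and -0.17 (SD 0.36). The muscle actin gene Acta1 read 9.39, 6.09, 9.83, 7.50 and 7.47 (13.4-fold), and Actc1 read 8.06, 5.995, 8.03, 7.39 and 7.03. Of the contractile genes, Mylpf read 7.02, 4.53, 7.08, 5.82 and 5.62, and embryonic myosin Myh3 read 5.84, 3.69, 6.31, 4.81 and 4.68. Tnnt3, Myh8 and Tnnc2 were also brightest on WT 3, at 7.13, 6.57 and 7.30. WT 1 and WT 3 were the bright captures for all of these. Pax7, a factor of muscle precursors, did not follow them (6.94, 7.88, 7.45, 7.74 and 6.87), and Myod1 was steady at 6.26 ± 0.25.

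Olfactory and neuronal genes were highest on WT 5. Of 24 measured genes of the olfactory neuron lineage and its supporting cells, 17 (70.8%) lay above the reference level, against 58.7% of all genes. Of the 24, 16 had an SD of 0.5 or more (2.14% of all genes) and 20 were highest on WT 5 (24.1%). The score was 0.32, -0.10, -0.51, -0.55 and 0.84 (SD 0.59). Of 17 measured pan-neuronal genes, 11 (64.7%) lay above the level, against the same 58.7%. An SD of 0.5 or more was seen for 9 (2.14% of all genes), and 14 were highest on WT 5 (24.1%). The score of the 17 genes was 0.34, -0.19, -0.57, -0.45 and 0.87 (SD 0.60). Tubb3, the tubulin of young neurons, read 8.43, 6.98, 5.44, 6.19 and 9.45 (16.1-fold), Stmn2 read 8.79, 7.55, 6.66, 6.98 and 9.78 (8.67-fold), and Gap43, a protein of growing axons, read 8.24, 7.16, 6.18, 5.85 and 9.21 (10.3-fold). WT 5 came first, then WT 1, with WT 3 and WT 4 last. Ebf2 (7.05, 6.13, 5.84, 5.38 and 8.34) and Ebf3 (7.66, 6.77, 6.69, 6.35 and 8.86), factors of olfactory precursors, kept that order, as did Lhx2 at both ends (8.15 on WT 5 and 6.57 on WT 3). Omp, the marker of mature olfactory neurons, spread less (6.78, 7.01, 5.96, 6.25 and 7.42), and Cyp2g1, of the supporting cells, read 7.18, 6.31, 6.19, 5.31 and 7.76. These genes of precursors and neurons, and Cyp2g1 of the supporting cells, were thus highest on WT 5. Nothing is read for supporting cells as a type from this 1 gene. Gng8, Nhlh1, Elavl3, Ina, Dcx and Stmn3 were also highest there, at 7.94, 7.42, 8.43, 8.02, 6.24 and 8.95. In all, 4 of the 24 olfactory and 3 of the 17 neuronal genes were highest elsewhere. Among them was Sult1c1, the brightest of the 24, which was highest on WT 2 (7.93, 8.97, 8.61, 8.10 and 7.96). Of the neuronal genes, Isl1 was at 7.90 ± 0.31. Neurog1 (4.87 ± 0.38) and Nefm (3.89 ± 0.12) lay below the reference level. Fabp7, a lipid carrier of glia including olfactory ensheathing cells, read 8.36, 4.13, 4.57, 4.75 and 6.997 (18.7-fold), high on the same captures but with WT 1 first. The glial genes Sox10 (5.43 ± 0.15) and Foxd3 (6.52 ± 0.14) spread less. Of the 10 measured glial genes, Fabp7 included, 4 were highest on WT 1 (17.6% of all genes) and 5 lowest on WT 2 (20.2%). With 10 genes nothing is read from these counts.

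**Figure D4:**
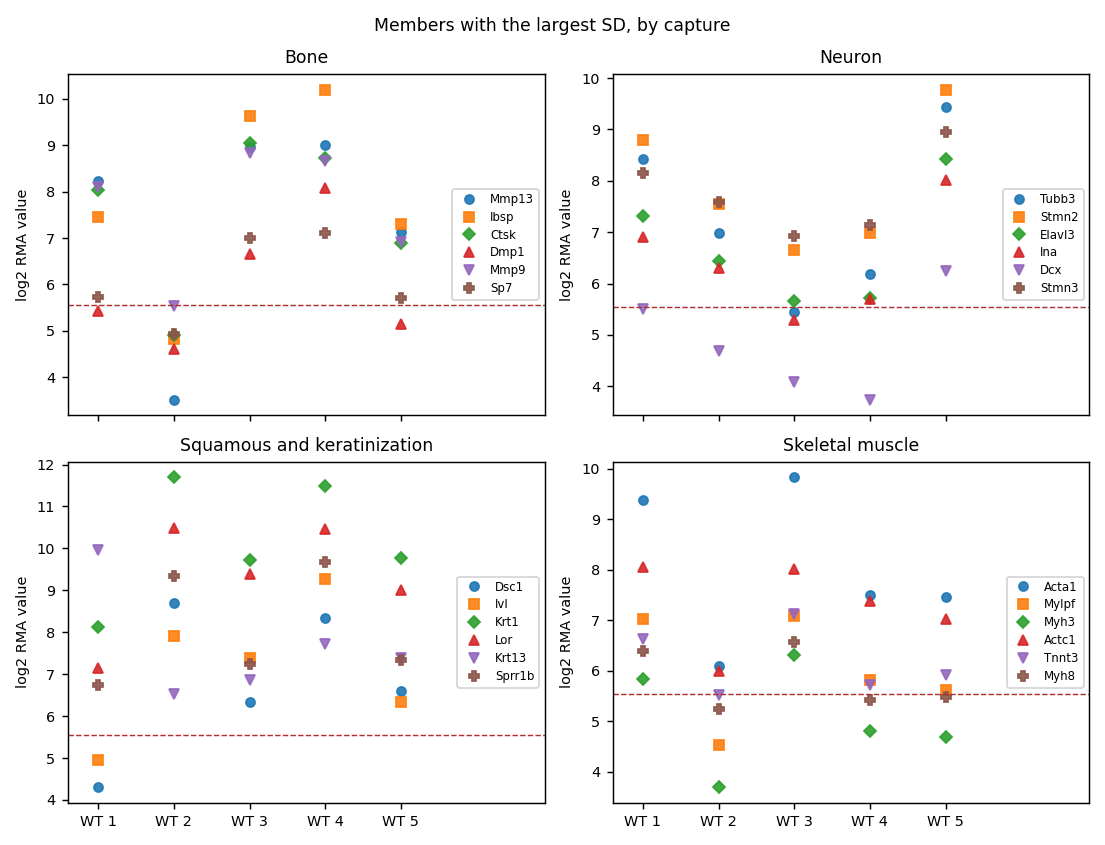
The log2 RMA value (y axis) of the 6 members with the largest SD of each of 4 lists is plotted on each of the 5 WT captures (x axis), with a symbol per gene. The dashed line is the reference level of 5.55. Bone genes are lowest on WT 2, neuronal genes highest on WT 5, most squamous genes lowest on WT 1 with Krt13 the reverse, and muscle genes highest on WT 1 and WT 3.

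Squamous genes differed widely between captures, and not all of them in 1 direction. Of 26 measured members, 23 lay above the reference level (58.7% of all genes) and 18 had an SD of 0.5 or more (2.14%). Of the 26, 11 were lowest on WT 1 (16.0% of all genes). The highest capture was WT 2 for 11 (20.7%), WT 4 for 10 (17.6%) and WT 1 for 4 (17.6%). The last count is near the share of all genes, and nothing is read from it. The score was -0.50, 0.57, -0.32, 0.65 and -0.39 (SD 0.56). The epidermal keratin Krt1 read 8.13, 11.70, 9.73, 11.50 and 9.77 (11.8-fold), and its partner Krt10 read 8.98, 12.35, 10.88, 12.15 and 11.12 (10.4-fold). Loricrin (Lor), a protein of the cornified envelope, read 7.15, 10.49, 9.39, 10.46 and 9.02. All had WT 2 and WT 4 high and WT 1 lowest. Involucrin (Ivl; 4.94, 7.92, 7.38, 9.27 and 6.35), the desmosomal cadherin Dsc1 (4.30, 8.71, 6.34, 8.35 and 6.60) and Sprr1b (6.74, 9.35, 7.25, 9.68 and 7.33) had the same captures high and low. The mucosal keratin Krt13 was the reverse, at 9.97, 6.53, 6.85, 7.73 and 7.39, with WT 1 at least 2 log2 units above each other capture. Krt6a (11.26, 10.10, 8.76, 9.88 and 9.33) and Krt4 (9.35 ± 0.33, 9.88 on WT 1) were also highest on WT 1. The named epidermal genes Krt1, Krt10, Lor, Ivl, Dsc1 and Sprr1b were thus lowest, and Krt13, Krt6a and Krt4 highest, on the same array. The list as a whole was less uniform: 8 members were lowest on WT 3 and 5 on WT 5. Of its other bright members, Krtdap read 9.75, 11.80, 10.65, 12.02 and 10.85 and Dmkn 10.55, 11.49, 10.997, 11.35 and 10.59. Sprr1a, a precursor of the cornified envelope, did not share the low WT 1 (10.42, 10.19, 9.76, 10.51 and 10.17). Filaggrin (Flg, 5.06 ± 0.37), its relative Flg2 (4.10 ± 0.15) and the keratin Krt16 (3.84 ± 0.18) lay below the reference level.

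Xist, which follows sex, had the largest SD of all genes above the reference level, at 2.77 (an 84.3-fold span). Without the sex-linked genes and systematic names, the 24 genes with the largest SD ran from 1.38 to 2.28, with spans of 9.81-fold to 44.9-fold, and 12 of them were in a list. Most of the unlisted ones followed the cornified-layer order, and 14 of the 24 were lowest on WT 1 and 12 highest on WT 4. Among the 325 variable genes, 20.3% were lowest on WT 1 and 23.1% highest on WT 4. Among all genes above the reference level, these shares were 12.3% and 12.8%. The cystatin-like protease inhibitor Stfa3 read 5.66, 11.05, 10.00, 11.13 and 8.91 (44.3-fold), Stfa1 read 6.84, 10.37, 8.84, 10.29 and 8.31, and Cstdc6 read 4.01, 7.76, 7.32, 8.68 and 4.42. Hornerin (Hrnr), a relative of filaggrin, read 5.60, 9.48, 8.75, 10.16 and 8.13, the calcium-binding protein Calm4 6.78, 10.38, 9.11, 10.92 and 8.86, and the keratin Krt77 6.81, 10.55, 8.16, 10.18 and 8.66. The lipoxygenase Alox12b, needed for the skin barrier, read 5.21, 8.57, 6.88, 8.65 and 6.35. These genes were all lowest on WT 1. Crct1, Il1f9, Krtap13 and Aox4 were lowest on WT 1 as well, with values there of 5.00, 3.98, 7.22 and 5.35 and highest values of 8.87, 8.12, 11.15 and 8.75. WT 1 set much of the spread of some: without it the SD of Stfa3 went from 2.25 to 1.04, of Hrnr from 1.75 to 0.88, of Calm4 from 1.61 to 0.99 and of Krtap13 from 1.496 to 0.83, and without WT 4 that of Crct1 went from 1.56 to 0.97. Serpina3n, a protease inhibitor of the acute phase, fell into none of these orders, at 9.44, 9.20, 9.55, 5.95 and 6.21, with WT 1 to WT 3 far above WT 4 and WT 5.

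**Figure D5:**
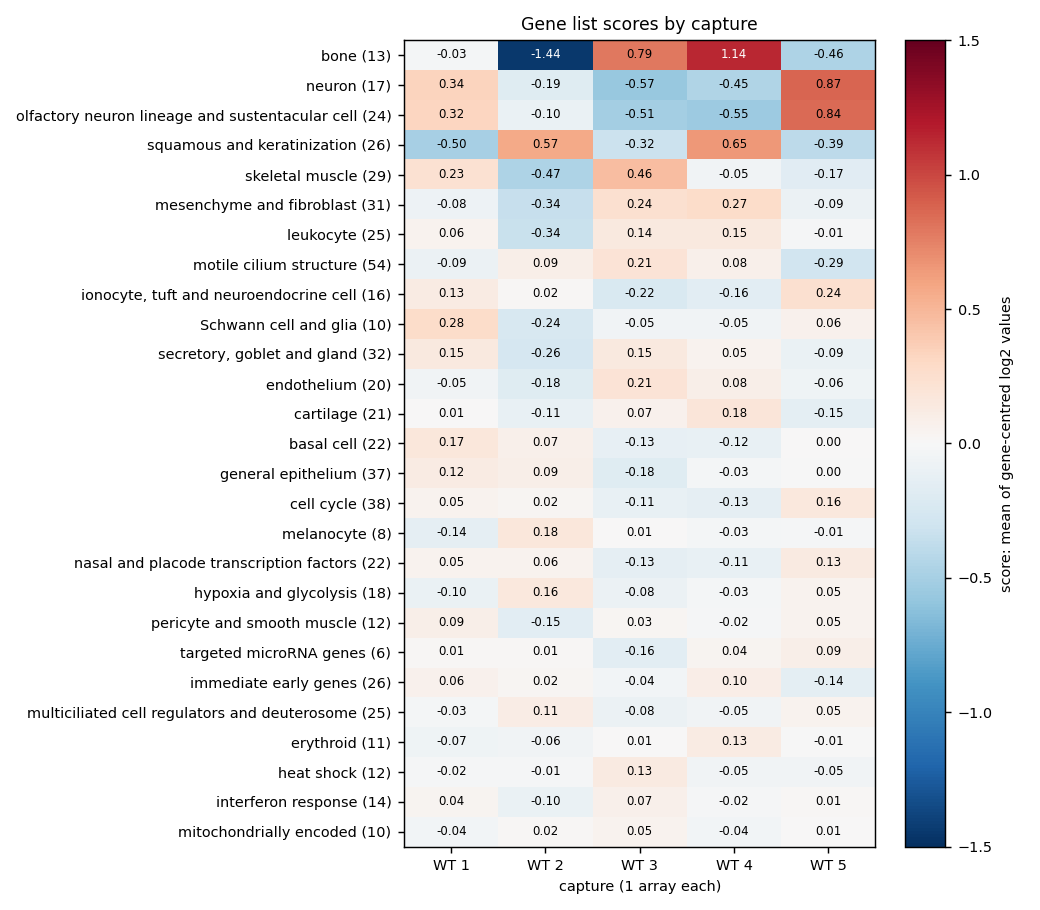
Each cell is the score of 1 gene list (y axis, number of members in brackets) on 1 WT capture (x axis): the mean over members of the log2 value minus the gene's mean over the 5 arrays, red above and blue below 0. Bone (-1.44 on WT 2, 1.14 on WT 4) spans most, neuron and olfactory lists peak on WT 5, and the lists at the bottom stay near 0.

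The measured genes of blood, vessel and pigment cells had medians close to the reference level of 5.55. Of 25 measured leukocyte genes, 13 lay above it, near the 58.7% of all genes, with a median of 5.60, and 18 were lowest on WT 2 (20.2% of all genes). Ptprc, the CD45 antigen of all leukocytes, was at 3.70 ± 0.13 and the T cell gene Cd3e at 4.42 ± 0.05. The mast cell protease Cpa3 read 7.12, 5.07, 8.52, 7.39 and 7.16, and Cd68, of macrophages and osteoclasts, read 7.48, 6.32, 7.82, 7.73 and 6.63. Tyrobp, an adaptor of myeloid cells and osteoclasts, read 6.98, 5.903, 7.70, 7.73 and 6.52. Gzma, a granzyme, was at 7.78 ± 0.37 and was highest on WT 2 (8.21). Endothelial genes had a median of 5.34, with 9 of 20 above the reference level: Plvap was at 7.14 ± 0.08, Cdh5 (VE-cadherin) at 6.44 ± 0.43, Erg at 6.39 ± 0.49, Eng at 6.28 ± 0.30 and Pecam1 at 5.66 ± 0.26. The largest SD was that of Emcn (4.63, 3.803, 5.70, 4.98 and 4.41). Pericyte and smooth muscle genes had 6 of 12 above it, with Ndufa4l2 at 11.19 ± 0.19, the receptor Notch3 at 7.58 ± 0.17, Acta2 at 7.43 ± 0.35, Mylk at 6.25 ± 0.19 and the smooth muscle myosin Myh11 at 5.25 ± 0.04. Rgs5 was high on WT 5 and WT 1 (6.66, 5.25, 5.63, 5.06 and 7.48). Of 11 measured erythroid genes 4, of 10 glial genes 5 and of 8 melanocyte genes 2 lay above the level. Only 11 of the 19 listed erythroid genes were measured, so the level of blood cells is not read from them. The brightest erythroid members were Slc4a1 (6.33 ± 0.21), Hbb-y (6.26 ± 0.47), Klf1 (5.70 ± 0.13) and Hba-x (5.70 ± 0.37), those of glia other than Foxd3 were the receptor Erbb3 (8.15 ± 0.18), S100b (6.08 ± 0.54) and Mbp (6.05 ± 0.09), and those of melanocytes were Pmel (6.01 ± 0.34), Mitf (5.56 ± 0.18), Mlana (5.40 ± 0.16) and Oca2 (5.39 ± 0.12), with the largest SD for Dct (5.29 ± 0.40).

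Among genes that report handling or stress, 1 of 26 immediate early genes had an SD of 0.5 or more (2.14% of all genes). So did 1 of 18 hypoxia and glycolysis genes, and none of 12 heat shock or 14 interferon response genes. With so few genes, nothing is read from these counts. Immediate early genes had a median of 7.02 and a median SD of 0.18, above the 0.14 of all genes above the reference level, and 13 of 26 were lowest on WT 5 (22.4% of all genes). Zfp36 was at 9.24 ± 0.18, Fosl2 at 8.06 ± 0.24, Fos at 7.16 ± 0.29, Egr1 at 6.84 ± 0.37 and Jund at 10.01 ± 0.13. Klf4, which is also a factor of keratinising cells, was the only member with an SD of 0.5 or more (7.09, 8.40, 7.39, 7.98 and 7.03), high on WT 2 and WT 4. The heat shock score was 0.13 on WT 3 and between -0.05 and -0.01 elsewhere, with Hspa1b at 10.47 on WT 3 against 9.73 to 10.00 on the other captures. The chaperones Hspb1 (9.99 ± 0.21) and Hspa4l (9.89 ± 0.14) were also among the 4 brightest of the list. Hypoxia and glycolysis genes had a median of 7.76, with the glycolytic enzymes Gapdh at 11.93 ± 0.09, Tpi1 at 10.24 ± 0.10 and Pgk1 at 9.98 ± 0.12. The glucose transporter Slc2a1 was at 9.98 ± 0.15, and Slc2a3 read 4.77, 6.59, 5.02, 5.85 and 5.26. Interferon response genes had 7 of 14 above the reference level (58.7% of all genes). The brightest were Usp18 (8.33 ± 0.32) and Ifit3 (7.62 ± 0.22), followed by Xaf1 (6.43 ± 0.08) and Rsad2 (6.03 ± 0.28). The median SD of the interferon genes was 0.21, with the largest SD for Ddx58 (5.57 ± 0.39), and Isg15 was at 4.25 ± 0.20. The 10 measured mitochondrially encoded genes had a median of 11.997 and SDs of at most 0.11, that of ND4L (11.01).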

How the data were processed

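Per the labels, RNA from formalin-fixed, laser-captured tissue was amplified, labelled with biotin and hybridised to Affymetrix arrays. The deposited values are log2 RMA values made by the authors with Affymetrix Expression Console, per the submitters' processing notes. Their scale was inferred from their range. For the program's version, the summary level, the genome build and whether all 10 arrays were normalised together, nothing is stated (not given in the sources used here). RMA sets the arrays to a common distribution, so that a shift of all genes would not be seen.

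Probe sets were named by the platform's annotation: 23521 had 1 symbol, 1814 several and 16010 none. Of the named ones, 23328 were found in RefSeq (GRCm38.p6) by Entrez ID, with the same symbol. For each gene the mean, SD and per-array values were computed with Python 3.11.15, numpy 2.4.6 and pandas 2.3.3, and plotted with matplotlib 3.10.9. The scripts were tested on simulated data. No test between groups was made, and the number of arrays, 5, limits the precision.

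Genes named were the 20 brightest (without systematic names, small RNA, mitochondrially encoded and ribosomal protein genes, of which the 6 brightest were named apart, ribosomal proteins excepted), the 24 with the largest SD above the reference level (systematic names and sex-linked genes left out), the 8 steadiest of the brighter genes, and from each list the 4 brightest members and the member with the largest SD. From the 5 lists with the largest score SD, the 6 members with the largest SD were named, and so were all targeted microRNA and sex-linked genes and the markers Foxj1, Deup1, Cdc20b, Krt5 and Trp63. Other list members that the text names were chosen after their values were seen. The members and lists were chosen with earlier results of these data known.

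Alternatives were averaging of probe sets per gene, median centring, each array left out, other reference percentiles, other measures and limits of spread, and median scores.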

Additional observations from a re-analysis of the deposited data

Results flagged for a closer look

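In 27 list scores and 197 named genes, the highest or lowest of the 5 captures was looked at for a gap to the next capture larger than 0.71 of the whole range. Chance gives such a gap in about 1 in 20 groups, and 5.13% of all genes above the reference level (669) had one. It was found for 1 score and 12 genes.

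With 12 of 197 genes, the share is near that of all genes, so the values are given without a reading by capture. On WT 3, the heat shock score was 0.13, with the next capture at -0.01, and Hspa1a, an inducible chaperone, read 8.63, with the next at 7.94. Ankrd39, among the steadiest genes, read 7.55 on WT 3 and 7.52 on the next capture, so that its 5 values lay close together all the same. The sex-linked genes separated the embryo labelled male: Xist was 4.72 on WT 3 and 10.77 on the next capture, Uty 7.97 against 4.41, Eif2s3y 7.15 against 4.26 and Kdm5d 5.49 against 3.03.

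WT 2 was apart for 4 genes. Bpifa1 was low at 11.60 (next 11.90) and the smooth muscle actin Acta2 low at 6.82 (next 7.53), whereas the basal cell factor Trp63 was high at 7.96 (next 7.48) and the melanocyte gene Mlana high at 5.67 (next 5.38). On WT 4 the cartilage collagen gene Col9a2 was high at 7.38 (next 6.98), and on WT 1 the immediate early gene Ier5 was high at 8.68 (next 8.38).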

How the results depend on the processing

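Over 17 alternatives, 14 summaries had 112 values, and 6 of these moved by more than the limits set. With the 99th percentile of the receptor genes as reference, 8143 genes (13029 at the 95th) and more than 50% of the members of 12 lists (21 at the 95th) lay above it. With an SD of at least 0.4, 570 genes counted as variable, and with at least 0.6, 216 did, against 325. Leaving out 1 capture at a time, the count ran from 269 to 403, the share of the first component from 43.9% to 61.0%, the SD of the bone score from 0.73 to 1.19, of the neuron score from 0.40 to 0.68, of the olfactory score from 0.41 to 0.68, of the squamous score from 0.49 to 0.61, of the muscle score from 0.28 to 0.41 and of the axoneme score from 0.12 to 0.22. With WT 5 kept, variable genes farthest on it then numbered 122 to 211, in sets of 333 to 403 variable genes. Without WT 5, 230 of the 325 variable genes (70.8%) still had an SD of 0.5 or more. For the 24 genes with the largest SD, 9 of 168 values moved, all to a smaller SD on leaving out 1 capture. The other values stayed within those limits. No paired analysis was possible because the results come from no test and rest on the WT group alone. The array's range limits what can be said of genes near the receptor level, and the precision is that of 5 embryos.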

Other observations

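Among variable genes that belong to no list and were chosen after their values were seen, several had the order of captures of a list. Cxcl14, a chemokine of epithelia (5.92, 8.82, 6.09, 7.31 and 6.43 on WT 1 to WT 5), Abca12, a lipid carrier of the skin barrier (5.28, 7.98, 5.83, 7.41 and 5.92), and the tight junction gene Cldn1 (5.27, 8.35, 5.93, 7.29 and 5.93) were high on WT 2 and WT 4 and lowest on WT 1, as Krt1 and Krt10 were. Dsg3, a desmosomal cadherin of stratified mucosa, was highest on WT 1 (8.14, 6.43, 4.79, 5.51 and 5.64), as Krt13 was. Panx3, a channel of bone and cartilage cells, was lowest on WT 2 and highest on WT 4 (5.58, 4.36, 7.01, 7.33 and 5.95).

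Gfy, a Golgi protein of olfactory neurons (9.35, 9.14, 7.63, 7.56 and 9.96), and Crabp1, which binds retinoic acid (7.73, 6.55, 5.98, 7.13 and 8.81), were highest on WT 5. Pax3, a factor of neural crest and muscle precursors, was high on WT 2, WT 3 and WT 4 (6.15, 8.89, 8.18, 7.82 and 6.06), as Pax7 was. The lens crystallin gene Cryaa was highest on WT 3 (6.44, 6.33, 8.63, 6.60 and 7.63).

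Probe sets without exactly 1 gene symbol were left out of the values above. Of these 17824, 6722 had a mean above the reference level, and 359 of them (5.34%) had an SD of 0.5 or more, against 2.49% of the named genes. Among the variable genes, 26 had a further named probe set with values of its own. Of these 26, 20 had the same highest capture as the probe set reported, 13 the same lowest, 11 both and 4 neither. Those of Alpl (6.79, SD 0.59), Col1a2 (8.56, SD 1.16) and the dim one of Ebf2 (4.24, SD 0.50 against 1.17) had both the same, while those of Uchl1 (6.10, SD 0.16 against 0.57), Dpysl3 (7.08, SD 0.23 against 0.80), Nav1 (5.48, SD 0.15 against 0.56) and Ahcy (5.35, SD 0.47 against 0.60) had neither.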
